A study of Mus musculus with 170 samples.

Results

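The 8 genes that encode the subunits of troponin were followed through single cells of the embryonic mouse heart. The members were taken by name from the expression table. All 8 (Tnnt2, Tnnt1, Tnnt3, Tnni3, Tnni1, Tnni2, Tnnc1 and Tnnc2) had a row among its 40549 genes. Cells came from the ventricular part of E9.5 hearts of C57BL/6 mice and were sequenced in 2 batches. Control hearts, labelled wild type, carried loxP-flanked Dgcr8 alleles and the Rosa26 mT/mG reporter without a Cre recombinase. The conditional knockout (cKO) hearts carried the same alleles and Cre expressed from the Mesp1 locus, which is active in mesoderm progenitors of the cardiovascular system. Dgcr8 is the partner of Drosha in the microprocessor that releases microRNA hairpins. The labels give the cKO genotype as Mesp1Cre/+; Dgcr8-/-. Both groups thus shared the floxed alleles and the reporter, and differed by Cre. Expression was given as TPM (transcript abundance corrected for length and scaled to the same total in every cell), and levels below are log2(TPM + 1) unless TPM is named.

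Troponin is the calcium switch of the thin filament of striated muscle. Troponin C binds calcium, troponin I holds back the interaction of actin and myosin until calcium arrives, and troponin T anchors the complex to tropomyosin. Each subunit has isoform genes named for the muscle in which the adult uses them. Tnnt2 and Tnni3 are the cardiac forms, Tnnt1 and Tnni1 the slow skeletal forms, Tnnt3, Tnni2 and Tnnc2 the fast skeletal forms, and Tnnc1 serves both cardiac and slow skeletal muscle. The embryonic heart is known to use Tnni1 as its main troponin I and to replace it with Tnni3 around birth.

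The table covered 74 control cells and 69 cKO cells. Cells were sorted into 5 clusters by 55 marker genes that included no troponin gene, so that troponin levels did not decide which cells were cardiomyocyte-like (CM-like). The CM-like cluster held 91 cells, and all 15 cardiomyocyte markers were at least 1 log2 unit above the other cells there. Of these 26 were control cells, 19 from batch 1 and 7 from batch 2. The remaining 65 were cKO cells, 32 from batch 1 and 33 from batch 2. The other control cells were 22 endothelial-like cells, 14 epicardial-like cells and 5 erythroid-like cells. The endothelial-like cluster also had 6 of 14 mesenchymal markers above the other cells, and the epicardial-like cluster 9 of 14. A cluster of 11 cells (7 control and 4 cKO) was led by mitochondrial transcripts and was left without a name.

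No label named an embryo or litter. Each genotype was therefore 1 sample, cells were not taken as replicates, and no test was run. SDs describe the scatter over cells, and shares of cells are given with a 95% interval (exact, Clopper-Pearson) for counting error alone. Several facts moved with genotype among these cells and their part in the results was not tested. Mitochondrial transcripts made up 6.27% of TPM in the median control CM-like cell and 2.90% in the median cKO cell. Xist reached a TPM of 1 in 64 of 69 cKO cells against 3 of 74 control cells. Ddx3y, a Y-linked gene, reached it in 49 of 74 control cells and in 0 of 69 cKO cells (allowing up to 4.35%). The sex of the sampled embryos and their genotype thus cannot be told apart. The number of detected genes had a median of 9079.5 in control and 8722 in cKO CM-like cells, but by batch the order turned, with 8458 and 9877 in batch 1 and 9582 and 7786 in batch 2. Dgcr8 itself was found at a TPM of 1 or more in 53.8% of the 26 control CM-like cells (interval 33.4 to 73.4%). In the 65 cKO cells the share was 32.3% (21.2 to 45.1%), and the intervals overlapped. Its means were 2.50 and 1.71 pooled, 2.58 and 2.45 in batch 1, and 2.31 and 1.00 in batch 2 (control, then cKO cells). Transcripts outside the deleted exons may still be counted. The mean level of the 13 endothelial markers in a CM-like cell ranged from 0.11 to 1.39 in control and from 0.18 to 1.76 in cKO cells, and none of the 13 passed the criterion for a difference that is used below. Pecam1 came nearest, 0.88 higher in cKO cells (0.61 in batch 1 and 0.98 in batch 2). In both batches 4 of the 13 were higher and 3 lower in cKO cells. A TPM of at least 10 for 2 or more of these markers was found in 1 of 26 control and 13 of 65 cKO cells. None of the 13 markers was at 0 in all CM-like cells, and Cdh5 and Cd93 did not reach a TPM of 1 in any of the 91.

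In the ventricular CM-like cells of the control hearts, 4 troponin genes were abundant and 4 were rare. By median TPM the order was Tnni1 (5094), Tnnc1 (4667), Tnnt2 (1991), Tnni3 (1402), Tnni2 (21.9) and Tnnt1 (19.4), and the medians of Tnnt3 and Tnnc2 were 0. Neighbours in this order overlapped, and on the log scale the medians of Tnnt1 and Tnni2 had the reverse order (4.33 and 4.05). Within a cell Tnni1 was on average 0.11 log2 units below Tnnc1, with an SD of 0.77 over 26 cells. All troponin transcripts together made up 1.36% ± 0.44 of TPM (SD over 26 control cells) and 1.38% ± 0.46 in 65 cKO cells. The batches went opposite ways, with means of 1.41 ± 0.49% and 1.24 ± 0.29% in batch 1 and of 1.24 ± 0.21% and 1.52 ± 0.54% in batch 2 (control, then cKO cells).

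**Figure D1:**
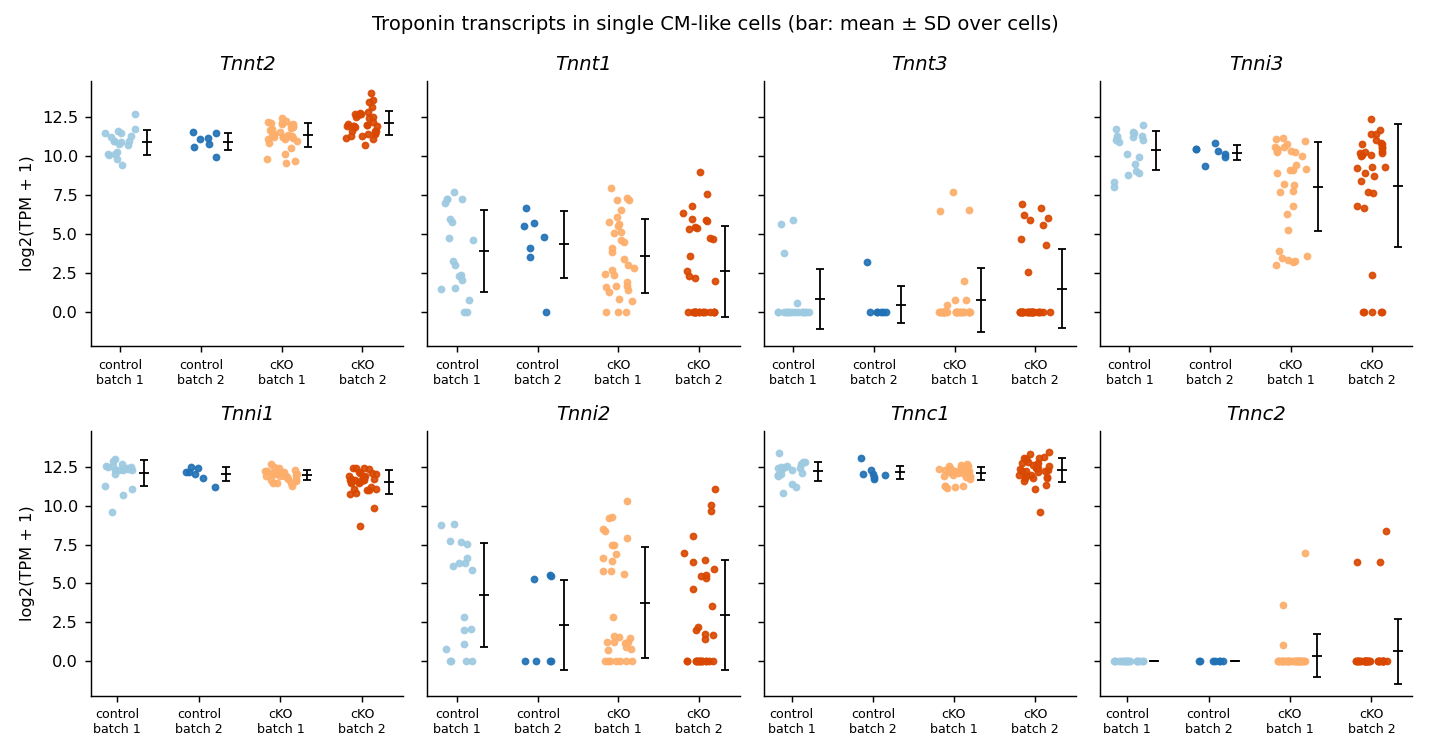
Level of each troponin gene, as log2(TPM + 1) on the vertical axis, in every CM-like cell, by genotype and batch; each point is 1 cell and the bar beside it gives the mean ± SD over cells. Tnni3 lies between 8.02 and 12.01 in control cells and reaches down to 0 in cKO cells, while Tnni1 and Tnnc1 are at least 8.70 in every cell.

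To describe how the troponin genes differed between the genotypes, the mean level of cKO CM-like cells was compared with that of control CM-like cells. A gene was counted as higher or lower when the pooled difference was at least 1 log2 unit and had the same sign in both batches. Of the 14971 genes with TPM above 0 in more than 10 CM-like cells, 7.8% were higher and 5.39% lower in cKO cells by this criterion (13.2% in either direction), and the median difference over these genes was 0.09. After each cell was scaled to a common expression profile the split turned, with 5.16% higher and 9.28% lower. The factors by which cells were divided ran from 0.055 to 1.41 in control cells (median 1.10) and from 0.28 to 1.62 in cKO cells (median 1.21). A cell with a factor as low as 0.055 was raised strongly in every gene, and its part in the scaled values given here was not tested. Of the 8 troponin genes 7 passed the filter, 1 was lower (Tnni3) and 0 were higher. Tnnc2, above 0 in 6 CM-like cells, did not pass the filter. The median difference of the 7 genes was -0.33.

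**Figure D2:**
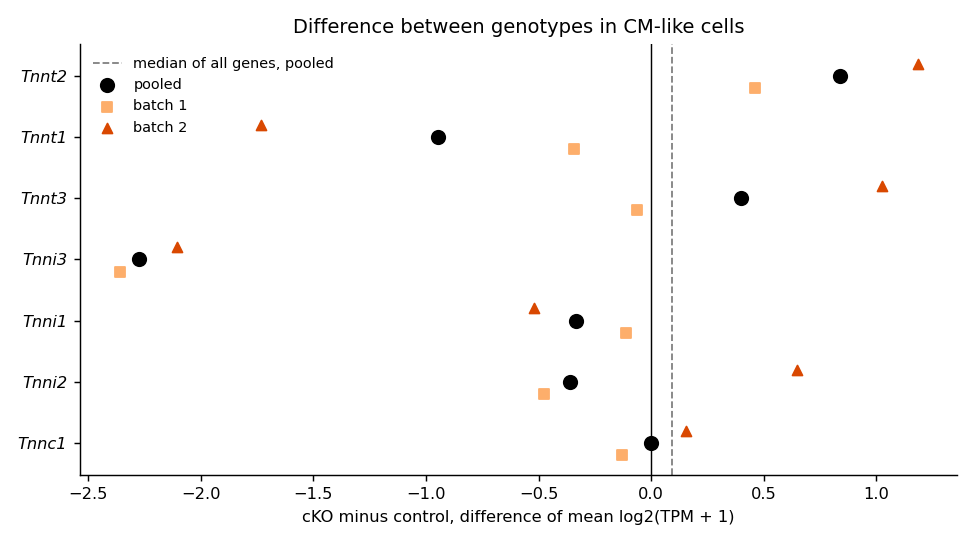
Difference of the mean log2(TPM + 1), cKO minus control CM-like cells, for the 7 troponin genes that passed the filter; circles are pooled, squares batch 1 and triangles batch 2, and the dashed line is the median of all genes (0.09). Tnni3 is the gene farthest from 0, at -2.27 pooled, and Tnnt3 and Tnni2 have opposite signs in the 2 batches.

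Among the troponin T genes, which encode the tropomyosin-binding subunit, the cardiac form dominated in both genotypes. Tnnt2 ranged from 9.43 to 12.67 in control CM-like cells with a median of 10.96, and from 9.54 to 14.04 in cKO cells with a median of 11.78. The ranges overlapped widely, yet 58 of 65 cKO cells lay above the control median and 7 above the highest control cell. The mean was 10.89 ± 0.72 (SD, 26 control cells) and 11.73 ± 0.85 (SD, 65 cKO cells), a difference of 0.84. It was 0.46 in batch 1 and 1.18 in batch 2. Within batch 2, 25 of 33 cKO cells exceeded the highest of 7 control cells, and within batch 1 none of 32 exceeded the highest of 19. The pooled difference fell short of 1 log2 unit. With 4 clusters, where the unnamed cluster joined the CM-like cells, it was 1.81, and with cells scaled to a common expression profile it was 0.35.

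Tnnt1, the slow skeletal troponin T, was detected (TPM of at least 1) in 22 of 26 control cells (84.6%, interval 65.1 to 95.6%) and in 44 of 65 cKO cells (67.7%, 54.9 to 78.8%). The lower share came from batch 2, where 17 of 33 cKO cells had it against 6 of 7 control cells, while in batch 1 the shares were 27 of 32 and 16 of 19. Its level ranged from 0 to 7.67 in control cells (median 4.33) and from 0 to 8.95 in cKO cells (median 2.64). The difference of the means was -0.95 pooled, -0.34 in batch 1 and -1.73 in batch 2, against SDs of 2.51 and 2.69. Tnnt1 was counted as lower under some of the other settings tried. The TnT pool of a cell nevertheless consisted almost wholly of Tnnt2, with a median share of 98.9% in control and 99.7% in cKO cells, and the highest share of Tnnt1 in any cell was 11.04%.

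Tnnt3, the fast skeletal troponin T, was seen in few cells. It was detected in 4 of 26 control cells (15.4%, interval 4.36 to 34.9%) and 13 of 65 cKO cells (20%, 11.1 to 31.8%), and the intervals overlapped. The highest control cell had a TPM of 57.5 and the highest cKO cell 207. Endothelial-like control cells, which have no sarcomere, had Tnnt3 in 5 of 22 cells (22.7%, 7.82 to 45.4%) with 9304 detected genes in the median cell. Epicardial-like control cells had it in 2 of 14 (14.3%, 1.78 to 42.8%) with 9488.5. The shares in CM-like cells lay between these, with overlapping intervals, and are not read as expression. The pooled difference between genotypes of 0.40 was made by batch 2 (1.02), and the value in batch 1 was -0.06.

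The promoters of 3 abundant members are shown next, Tnnt2 as the main troponin T, and Tnni1 and Tnni3 as the forms that make up most of troponin I. The sequences are the 250 bases before the RefSeq transcription start (build GRCm38.p6) and are written 5' to 3' on the strand of the gene. Capitals mark matches to AGATAA (the site of GATA factors), CATTCC (the MCAT site of TEAD factors), TATAAA, the E-box CANNTG, the MEF2 site and the CArG box of serum response factor, each searched on both strands. No matches overlap in these windows. The windows lie at chr1:135836084-135836333 on the plus strand for Tnnt2, chr1:135799171-135799420 on the plus strand for Tnni1 and chr7:4522529-4522778 on the minus strand for Tnni3.
Tnnt2: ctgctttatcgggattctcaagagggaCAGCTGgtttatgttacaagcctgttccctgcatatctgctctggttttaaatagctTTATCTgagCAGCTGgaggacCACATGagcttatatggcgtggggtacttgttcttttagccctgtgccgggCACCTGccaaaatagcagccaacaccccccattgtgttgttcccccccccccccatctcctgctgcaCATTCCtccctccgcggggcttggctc
Tnni1: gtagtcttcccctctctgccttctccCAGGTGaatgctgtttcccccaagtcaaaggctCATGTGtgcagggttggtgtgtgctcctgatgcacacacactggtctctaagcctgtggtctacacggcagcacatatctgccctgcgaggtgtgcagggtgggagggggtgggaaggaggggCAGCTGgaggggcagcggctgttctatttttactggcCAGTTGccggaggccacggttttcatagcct
Tnni3: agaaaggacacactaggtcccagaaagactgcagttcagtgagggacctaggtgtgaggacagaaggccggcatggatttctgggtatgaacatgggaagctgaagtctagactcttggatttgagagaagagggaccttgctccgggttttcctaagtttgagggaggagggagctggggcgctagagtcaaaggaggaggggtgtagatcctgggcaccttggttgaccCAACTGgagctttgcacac
The Tnnt2 window had 1 match to AGATAA, 1 to CATTCC and 4 E-boxes, the Tnni1 window 4 E-boxes, and the Tnni3 window 1 E-box. Among 32536 distinct promoter windows of the same length, 9.97% held AGATAA, 12.6% CATTCC, 12.3% TATAAA, 66.2% an E-box, 2.89% the MEF2 site and 1.48% the CArG box. A match describes letters and does not show that a factor binds. The Tnni1 and Tnni3 windows lie within the annotated span of their genes, which have transcripts that start further upstream. RefSeq lists a further start for Tnnt2 and for Tnni1, whose windows are not printed. Windows were found for 6 of the 8 genes, and Tnnt3 and Tnni2 had none.

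Troponin I, the inhibitory subunit, included the gene with the largest difference of means between genotypes. Tnni3, the cardiac form, ranged from 8.02 to 12.01 in the 26 control CM-like cells, with a median of 10.45. In the 65 cKO cells it ranged from 0 to 12.36, with a median of 9.27. The groups overlapped, but 22 of the 65 cKO cells lay below the lowest control cell (12 of 32 in batch 1 and 10 of 33 in batch 2), and 1 lay above the highest. A TPM of 0 was found in 5 cKO cells, all of batch 2, and in 0 of 26 control cells (a count that allows up to 11.5%). These 5 cells had between 4536 and 8375 detected genes, and their Tnni1 level was between 10.80 and 12.40.

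The mean Tnni3 level was 10.33 ± 1.09 (SD, 26 cells) in control and 8.06 ± 3.42 (SD, 65 cells) in cKO cells. Over all cells the means differed by -2.27, with -2.36 within batch 1 and -2.11 within batch 2, and 0.43% of the tested genes had a lower value. Scatter among cKO cells was more than that among control cells in both batches, with SDs of 2.86 against 1.25 in batch 1 and 3.93 against 0.48 in batch 2. The size of the difference depended on how cells were summarised. Medians differed by -1.18 pooled, by -1.90 in batch 1 and by -0.34 in batch 2. The mean TPM of cKO cells was 0.57 times that of control cells (921 against 1628), a log2 ratio of -0.82, which does not meet the criterion. Below the control median of their own batch lay 30 of 32 cKO cells in batch 1 and 23 of 33 in batch 2, and in batch 2 a further 6 exceeded the highest of the 7 control cells. Of the transcript sequence of Tnni3, 2.62% (by 31-mers) is shared with Dnaaf3, which overlaps it on chromosome 7 and had a median of 0 in CM-like cells of both genotypes.

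Tnni1, the slow skeletal form and the main TnI of these cells, did not meet the criterion. It ranged from 9.61 to 13.01 (median 12.31) in control and from 8.70 to 12.66 (median 11.88) in cKO CM-like cells, and was found in all 91. The means were 12.07 ± 0.75 and 11.74 ± 0.62 (SD), a difference of -0.33 (-0.11 in batch 1 and -0.52 in batch 2). Below the control median lay 58 of 65 cKO cells, although 1 was below the lowest control cell. In batch 2, 9 of 33 lay below the lowest of the 7 control cells of that batch. With 4 clusters the difference was 0.45, and with cells scaled to a common expression profile it was -0.83, so that neither its size nor its sign held under all settings. The summed TnI level was 12.57 ± 0.53 in control and 12.14 ± 0.46 in cKO cells.

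The share of each isoform in the TnI transcripts of a cell put these differences on 1 scale. Tnni3 made up between 5.45 and 78.1% of TnI TPM in control CM-like cells (median 25.2%) and between 0 and 74.4% in cKO cells (median 14.8%). It was under 1% in 14 of 65 cKO cells, 8 in batch 1 and 6 in batch 2, and in 0 of 26 control cells. The medians of control and cKO cells were 27.8% and 10.2% in batch 1, but 19.9% and 18.6% in batch 2. The mean log2 ratio of Tnni1 to Tnni3 was 1.74 ± 1.31 (SD, 26 control cells) and 3.68 ± 3.48 (SD, 65 cKO cells). Its medians were closer, 1.57 and 2.48 over all cells, 1.38 and 3.09 in batch 1 and 1.99 and 2.13 in batch 2.

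**Figure D3:**
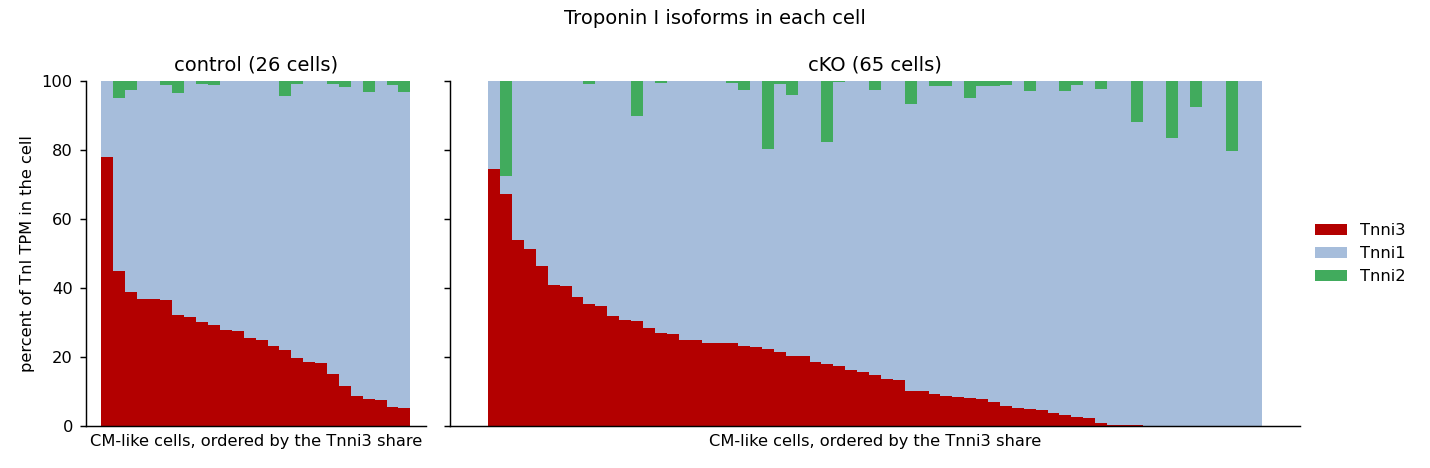
Composition of troponin I in each CM-like cell: each vertical bar is 1 cell, ordered by its Tnni3 share, and the colours give the percent of TnI TPM from Tnni3, Tnni1 and Tnni2. The Tnni3 share starts at 5.45% in control cells, and 14 of 65 cKO cells lie under 1%.

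Tnni2, the fast skeletal form, varied widely from cell to cell. It was detected in 17 of 26 control cells (65.4%, interval 44.3 to 82.8%) and 40 of 65 cKO cells (61.5%, 48.6 to 73.3%). Its level ranged from 0 to 8.81 in control (median 4.05) and from 0 to 11.06 in cKO cells (median 1.62). At a limit of 10 TPM the shares were 50% and 41.5%. A TPM of at least 100 was reached by 5 control and 14 cKO cells, and the highest cKO cell had 2135. Outside the CM-like cluster Tnni2 was found in 2 of 22 endothelial-like control cells (9.09%, 1.12 to 29.2%), 3 of 14 epicardial-like cells (21.4%, 4.66 to 50.8%) and 2 of 5 erythroid-like cells (40%, 5.27 to 85.3%), none above 52.5 TPM. The intervals of the epicardial-like and erythroid-like shares overlapped those of the CM-like cells. In the unnamed cluster it was found in 1 of 7 control and 3 of 4 cKO cells. The difference between genotypes was -0.36 pooled, -0.47 in batch 1 and 0.65 in batch 2, with no common direction. Up to 27.4% of the TnI TPM of a cKO cell came from Tnni2, against at most 4.84% in a control cell.

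Troponin C, the calcium-binding subunit, showed almost no difference. Tnnc1 ranged from 10.79 to 13.41 (median 12.19) in control and from 9.59 to 13.41 (median 12.24) in cKO CM-like cells. The means were 12.19 ± 0.56 and 12.18 ± 0.61 (SD), and the batch differences were -0.13 and 0.15. Since Tnnc1 was level, ratios to it describe the balance of the subunits within a cell. The mean log2 ratio of Tnnt2 to Tnnc1 was -1.30 ± 0.79 in control and -0.46 ± 0.82 in cKO cells (SD), a difference of 0.59 in batch 1 and 1.03 in batch 2. The ratio of all TnI to all TnC went the other way, from 0.38 ± 0.60 to -0.05 ± 0.67. When each cell was scaled to a common expression profile, Tnnc1 itself differed by -0.49, so its level holds for TPM only.

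Tnnc2, the fast skeletal troponin C, was listed at 0 in the 26 control CM-like cells (which allows up to 11.5%) and in all other control cells. It was detected in 6 of 65 cKO cells (9.23%, interval 3.46 to 19.02%), 3 in each batch, with a median TPM of 81.8 in those 6 and a maximum of 324. Tnnc2 overlaps Ube2c, a cell cycle gene, and 59.04% of its transcript 31-mers also occur in Ube2c on 1 strand or the other. Reads of these genes may therefore be split between them, and the Tnnc2 values are uncertain. Ube2c was at a median of 8.11 in the 6 cells and 7.55 in the 59 others, and higher in control CM-like cells (median 9.23), where Tnnc2 was at 0. The limit that control cells allow and the share in cKO cells overlapped.

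**Figure D4:**
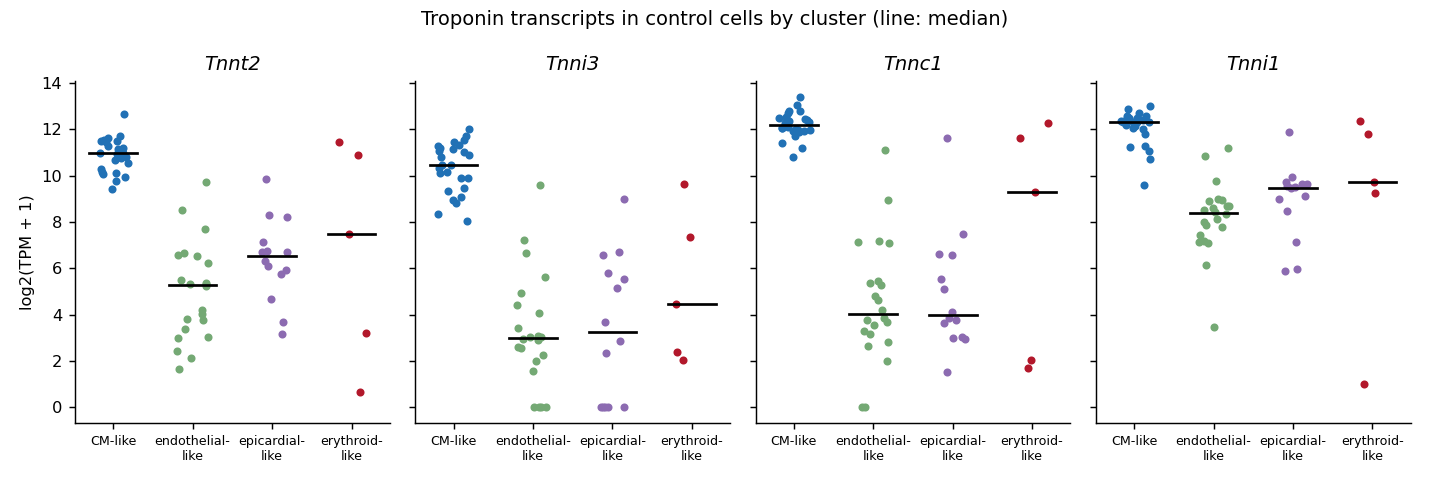
Level of 4 troponin genes, as log2(TPM + 1), in control cells of the CM-like (26), endothelial-like (22), epicardial-like (14) and erythroid-like (5) clusters; each point is 1 cell and the line is the median. Tnni1 has medians of 8.38 and 9.47 in the endothelial-like and epicardial-like cells, above the other 3 genes.

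Control cells outside the CM-like cluster gave the level of troponin transcripts in cells that should lack them. In control cells 5.82% of 14082 genes were higher in CM-like than in endothelial-like and epicardial-like cells by the same criterion, and the 4 abundant troponin genes were all higher against each of these clusters and in each batch. Against endothelial-like cells the difference was 5.89 for Tnnt2, 7.06 for Tnni3, 7.65 for Tnnc1 and 3.89 for Tnni1. Against epicardial-like cells it was 4.51, 6.93, 7.28 and 3.16 in the same order.

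Among the 4 abundant genes, Tnni1 had the highest level in these cells. Its median was 332 TPM in endothelial-like and 708 TPM in epicardial-like cells, 6.53% and 13.9% of the median in CM-like cells. For Tnnc1, which had a similar level in CM-like cells, the same shares were 0.33% and 0.32%, for Tnni3 0.49% and 0.64%, and for Tnnt2 1.90% and 4.57%. The rare Tnnt1 had larger shares, 10.8% and 15.97%, of a far lower level. Among the 15 cardiomyocyte markers the median share was 0.36% in endothelial-like cells (highest 2.25%, Ryr2) and 1.02% in epicardial-like cells (highest 13.8%, Myl7), and all 15 were below Tnni1 in both. By mean TPM the shares were closer, at 9.92% for Tnni1 against a median of 3.28% and a highest value of 9.89% over the markers in endothelial-like cells, and 16.5% against 7.82% and 16.1% in epicardial-like cells. Tnni1 was detected in all 22 and all 14 of these cells, and the lowest had a TPM of 10.05. The part of transcripts carried over from cardiomyocytes was not tested. In the 5 erythroid-like cells, all of batch 2, the levels spread from near 0 to those of CM-like cells, with Tnni1 between 0.99 and 12.37 and Tnnt2 between 0.65 and 11.45.

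Whether the slow skeletal and cardiac forms varied together was described within each genotype and batch, across cells that share a batch. For Tnni1 and Tnni3 the values were low on the TPM scale and depended on the settings. Pearson's r of log2(TPM + 1) was -0.01 in 19 control cells of batch 1, 0.25 in 7 control cells of batch 2, 0.18 in 32 cKO cells of batch 1 and -0.07 in 33 cKO cells of batch 2, a mean of 0.09. Spearman's rho was 0.27, 0.46, 0.22 and -0.20. In the 22 cKO cells with Tnni3 below the lowest control cell, Tnni1 ranged from 10.80 to 12.66 (median 11.68), and in the 43 others from 8.70 to 12.47 (median 11.91). The mean r was higher under several other settings, at 0.24 with clusters of variable genes, 0.26 given the number of detected genes, 0.41 with 4 clusters and 0.48 with cells scaled to a common expression profile. That scaling also raised the mean r of Tnnt2 and Tnnc1, to 0.68, but that of Tnnt1 and Tnni3 only from 0.16 to 0.21. The part of cells with very low scaling factors in these values was not tested.

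**Figure D5:**
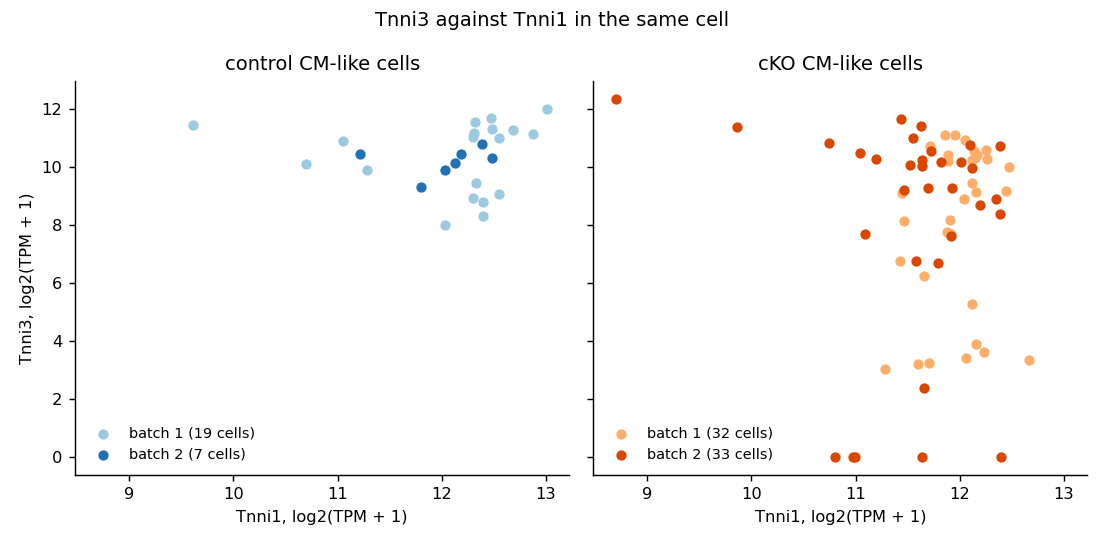
Tnni3 against Tnni1 in the same CM-like cell, both as log2(TPM + 1), in control (left) and cKO cells (right), coloured by batch. The 22 cKO cells with Tnni3 below 8.02, the lowest control value, have Tnni1 levels between 10.80 and 12.66, within the range of the other cKO cells or just above it.

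Tnnt2 and Tnnc1 had the highest mean r of all pairs of members over the 4 groups of genotype and batch, 0.39 (0.20, 0.57, 0.41 and 0.37 in the groups ordered as above). Given the number of detected genes it was 0.28, and Spearman's rho of this pair was -0.02 in control cells of batch 1. Tnnt2 with Tnni3 had a mean r of 0.28, and Tnnt1 with Tnni2, a slow and a fast form, 0.29. Tnni2 was found in 15 of the 22 control cells with Tnnt1 (68.2% of those with Tnnt1 and 88.2% of those with Tnni2) and in 29 of 44 such cKO cells (65.9% and 72.5%). These shares were close to those of all CM-like cells, of which 65.4% and 61.5% had Tnni2 and 84.6% and 67.7% had Tnnt1. Tnni1 also went with a technical measure, the mitochondrial share of a cell, with a mean r of -0.56 and negative values in all 4 groups. With the number of detected genes, r ranged over the groups from -0.62 to 0.63 for Tnnt2 and from -0.91 to 0.05 for Tnnc1.

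Genes whose levels followed a member most closely within groups were named by the highest mean r among 8093 genes. For Tnnt2 they were Myom1, a protein of the sarcomeric M-band (0.58), Lars2, the mitochondrial leucyl-tRNA synthetase (0.56), and Chd7, a chromatin remodeller (0.54). For Tnnc1 they were the myosin light chains Myl7 (0.59) and Myl4 (0.59) and the respiratory chain gene Ndufb11 (0.57). For Tnni1 they were Slc25a4, the mitochondrial ADP/ATP carrier (0.70), Clic4 (0.65) and the pseudogene Tpt1-ps3 (0.64), in a setting where the median gene had 0.18. For Tnni3 they were Hnrnpl, a splicing regulator (0.48), Trdn, triadin of the calcium release complex (0.44), and Fbn2, fibrillin (0.39). Tnnt1 was nearest to Lrrc10 (0.47), Abcc9 (0.47) and Tmlhe (0.46), and Tnni2 to Gm15500 (0.47), Lsm7 (0.45) and Ssrp1 (0.45). Of these 18 genes Abcc9 (-1.71), Lsm7 (-1.75) and Trdn (-1.16) were themselves lower in cKO cells, and Fbn2 (2.28) and Clic4 (1.20) were higher. Over all 14971 tested genes 5.39% were lower and 7.8% higher. With a stricter filter on detection, which left 6679 genes, the shares were 10.4% and 14.6%. These are correlations across few cells, the highest of many, and carry no test.

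The troponin T and I genes lie in pairs in the mouse genome (GRCm38, GENCODE M21). Tnnt2 (chr1:135836354-135852260) and Tnni1 (chr1:135779434-135810989) are 25364 bases apart with Lad1 between them. Tnnt1 (chr7:4504570-4516382) and Tnni3 (chr7:4518305-4524229) are 1922 bases apart, and Tnnt3 (chr7:142498836-142516009) and Tnni2 (chr7:142441808-142444410) 54425 bases apart with Lsp1 between them. Tnnc1 (chr14:31208312-31211729) and Tnnc2 (chr2:164777161-164779967) lie alone. Within the pairs the mean r was -0.11 for Tnnt2 and Tnni1, 0.16 for Tnnt1 and Tnni3, and 0.07 for Tnnt3 and Tnni2. These values lay within the range of the other pairs of members, from -0.15 (Tnni1 and Tnni2) to 0.39 (Tnnt2 and Tnnc1).

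The differences between genotypes had the same direction in 1 pair and opposite directions in another, each in both batches. Tnni3 differed by -2.27 and Tnnt1, on the same strand next to it, by -0.95, and both were lower in cKO cells in each batch. The overlapping Dnaaf3 was near 0 in both genotypes (means 0.15 and 0.10). Tnnt2 and Tnni1 differed in opposite directions in both batches, and Lad1 between them was also near 0 (0.24 and 0.06). For Tnnt3 and Tnni2 both differences changed sign between the batches (-0.06 and -0.47 in batch 1, 1.02 and 0.65 in batch 2). Among the other flanking genes Lsp1, between Tnnt3 and Tnni2, was higher in cKO cells (1.23, and 0.45 and 2.89 in the batches). Nisch, which overlaps Tnnc1, was higher by 1.42, and Ube2c, which overlaps Tnnc2, differed by -1.44. Snx21 beside Tnnc2 was higher by 1.95, while Tnnc1 showed almost no difference. Phlda3, Ppp1r12c and Mrpl23 did not meet the criterion (0.82, 0.29 and -0.88), and Pkp1, Syt8 and Sema3g were not tested because they were near 0.

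The rest of the thin filament, of which troponin is part, was compared as a list of 20 genes of actins, tropomyosins and proteins that bind or cap the filament. Like the other gene lists it was chosen with earlier results of these data known, so its shares are a description only. Of the 19 tested, 8 were higher in cKO cells and 0 lower (7.8% and 5.39% of all genes), with a median difference of 0.78 against 0.09 over all genes. Tropomyosins, which hold troponin on actin, were among them. The mean of Tpm2 went from 3.73 to 8.09 (4.36 higher), that of Tpm4 from 5.48 to 9.05 (3.57 higher), and that of Tpm3 from 6.37 to 7.91 (1.54 higher). Tpm1, the main cardiac tropomyosin, differed by 0.56 and did not meet the criterion. Lmod2, a leiomodin that lengthens thin filaments, was 2.19 higher. Lmod3, Fhod3, Acta1 and Acta2 made up the rest of the 8. With cells scaled to a common expression profile 6 were higher and 0 lower (5.16% and 9.28% of all genes), since Acta1 and Acta2 no longer met the criterion, and the median difference was 0.33. Actc1 and Nebl of this list were also among the markers that defined the CM-like cells. In the direction of lower levels the list held Neb (-0.10), Xirp1 (-0.13) and the untested Nrap (-0.26), all under 1 log2 unit.

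Genes typical of skeletal muscle were mostly silent. Of 18 genes of the skeletal sarcomere, 5 passed the filter, 0 were higher and 1 was lower (7.8% and 5.39% of all genes), and the median difference was -0.72. With cells scaled to a common expression profile 3 were lower (9.28% of all genes), as Mylpf and Casq1 joined, and the median was -1.18. The gene counted as lower was Myoz1, a calcineurin-binding protein of the Z-disc (-1.82). Casq1 had the same sign in both batches, but its differences there (-0.50 and -0.15) were smaller in size than the pooled -0.72. Myh8 (0.19) and the untested Atp2a1 (0.30, in 4 cKO cells) also had the same sign in both batches. Mylpf (-1.39) and Myl1 (-0.11) differed in sign between batches. Myl1 was abundant, at means of 10.05 in control and 9.94 in cKO cells. The fast myosin heavy chains Myh1 and Myh2 and myotilin were at 0 in all 91 cells. Of 11 listed symbols of myogenic genes 10 were in the table, and Pax7, Myf5, Myf6, Myog, Tmem8c and Tcf15 were at 0 in every CM-like cell. Pax3 was detected in 3 cells and Msc, musculin, in 2 control and 18 cKO cells, and their differences were -0.05 and 0.33.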

How the data were processed

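Single cells from E9.5 mouse ventricles were picked by hand and made into libraries by Smart-seq2 and Tn5 tagmentation. The authors deposited 1 table of TPM values per gene and cell, obtained with Salmon against mm10; the version and the annotation were not given in the sources used here. According to the study's methods, cells with a low mapping rate or with reporter transcripts that contradicted the genotype were left out. TPM summed to between 996133 and 999999 in each cell, so the sequencing depth is unknown and the number of detected genes was used in its place. Reads carried no molecular identifiers.

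The 143 columns were matched by title to 143 of the 170 labelled samples, and 27 had no column and were not analysed here. All cells were kept. Doublets were not called, since cells were picked by hand. Ward clustering of z-scored log2(TPM + 1) of the 55 markers was divided into 5 clusters, each named for the class with the largest share of markers that were detected in most of its cells and at least 1 log2 unit above the other cells, given 3 or more such markers. The class names were rebuilt from markers and are not the study's own. Differences are means of log2(TPM + 1), cKO minus control, over genes found (TPM above 0) in more than 10 CM-like cells; the pseudocount of 1 understates changes of low genes. The study compared cells by a rank-sum test; here no test was run because cells are not replicates. Named genes were all 8 members, the 3 genes most correlated with each member found in most CM-like cells, the flanking protein-coding genes, and from the fixed lists the 3 largest differences in each direction, all tropomyosins and each myogenic gene found in 3 or more CM-like cells; other list genes were named after their values were seen. Members and lists were chosen with earlier results of these data known. Shared transcript sequence was counted as 31-mers in GENCODE M21 on either strand. The alternatives were pseudocounts of 0.1 and 10, ratios of mean TPM, medians, each batch alone or equally weighted, other clusterings, other scalings, other detection thresholds and other filters. Steps were tested on simulated data. Python 3.11.15, numpy 2.4.6, pandas 2.3.3 and scipy 1.17.1 were used.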

Additional observations from a re-analysis of the deposited data

Results flagged for a closer look

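The 11 cells that received no cluster name entered no comparison. Among the 4 cKO cells of them 4 troponin genes reached log2(TPM + 1) values above the highest of the 7 control cells of that cluster. Tnnt2 reached 12.01 (highest control cell 9.13), Tnni1 11.38 (10.78), Tnnc1 11.73 (11.47) and Tnni2 11.37 (1.12). The Tnni2 value belonged to a single cell and was above that of every CM-like cell. The median mitochondrial share of TPM was 53.97% in the control and 18.96% in the cKO cells of this cluster. Its part in these levels was not tested.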

How the results depend on the processing

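Over 379 combinations of a result and an alternative, 352 stayed within the limit set for the result. A further 27 moved beyond their limit, and no called value changed sign. The limit was the scatter over cells for differences and the interval for shares of cells. For mean r it was the SD over the 4 groups of genotype and batch, and for counts of members a fixed ratio. With 6 clusters the CM-like cells were the same 26 control and 65 cKO cells, so those combinations were bound to stay. The scatter was a wide limit, for Tnni3 an SD of 2.95 against a difference of -2.27, so staying within it does not show that a difference held. The difference in the Tnni3 share of TnI stayed by this rule, though it went from -7.99 to -0.55 percentage points in batch 2 alone. The Tnni3 difference was negative in all 15 alternatives, between -2.73 (cells scaled to a common expression profile) and -0.82 (log2 ratio of mean TPM), and the latter is the alternative under which Tnni3 was no longer called, leaving 0 members lower and 1 higher (Tnnt3). With 4 clusters, which add the unnamed cells, the Tnnt2 difference was 1.81 and 1 member was called higher, and Tnni1 (0.45) and Tnnc1 (0.96) turned positive. With a pooled threshold of 0.5, 1 member was higher and 2 lower. The members called lower were also 2 (Tnni3 and Tnnt1) with a pseudocount of 0.1, with medians, with equal weight for both batches, without mitochondrial transcripts and with cells scaled to a common profile. The mean r of Tnni1 and Tnni3 was 0.41 with 4 clusters, 0.24 with clusters of the 1000 most variable genes, 0.48 after scaling and 0.26 given the number of detected genes; the cause was not tested. In the clusters of variable genes different clusters held most CM-like cells of each genotype. The median of all genes shifted by 0.14 with ratios of mean TPM, 0.10 with 4 clusters, -0.11 with clusters of variable genes, and 0.14 and -0.29 in batch 1 and batch 2 alone. Relative to it Tnni3 was lower in each. Leaving out the 13 cKO cells and 1 control cell with 2 or more endothelial markers at a TPM of at least 10, an alternative chosen after seeing the data, gave -2.34 for Tnni3. No paired analysis was possible because title numbers mark single cells and no result comes from a test. Unknown depth limits every statement on the rare forms, since a TPM of 0 does not show that a cell lacks the transcript.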
